A study of Mus musculus with 16 samples.

Results

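The microglial and inflammatory microRNAs (miRNAs) were a group of 8 mature miRNAs known for their induction through nuclear factor kappa B (NF-kB), the transcription factor of the inflammatory response, or for their expression in microglia and other myeloid and lymphoid cells. They were taken by name from 18488 small RNA features, of which 1254 were mature miRNAs, with earlier results of these data known. Small RNA was sequenced from frozen prefrontal cortex of 8 PS19 mice and 8 wild-type (WT) mice, 1 library for each mouse. PS19 mice were heterozygous (PS19+/-) for a transgene that expresses human tau with the P301S mutation from the mouse prion promoter, in a mixed C57BL/6 and C3H background, and the WT mice were littermates without the transgene. All mice were untreated and about 9.6 months old, with males and females in equal number in each genotype, and were perfused with saline before the tissue was taken. The labels gave no sex for a library, so sex was not a term in any test.

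miRNAs are short RNAs that lower the output of messenger RNAs through pairing with their seed, the bases near the 5′ end. miR-155 is induced through NF-kB and Toll-like receptor signalling and promotes inflammatory responses of macrophages and microglia, while miR-146a and miR-146b are induced by the same pathway and repress its adaptors, and miR-21 is induced in activated myeloid and glial cells but is also made by many other cells. miR-142 and miR-223 are characteristic of blood-forming cells, miR-223 of neutrophils and monocytes above all, and miR-150 of mature lymphocytes.

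The mature sequences are shown because they decide which of these miRNAs are related to each other. They are given 5′ to 3′ with the seed, bases 2 to 8, in capitals, as RefSeq annotates them on GRCm38.p6.
mmu-miR-155-5p: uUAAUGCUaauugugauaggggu
mmu-miR-146a-5p: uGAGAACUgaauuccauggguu
mmu-miR-146b-5p: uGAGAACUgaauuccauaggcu
mmu-miR-21a-5p: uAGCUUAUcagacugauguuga
mmu-miR-21c: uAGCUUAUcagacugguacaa
mmu-miR-223-3p: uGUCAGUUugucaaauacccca
mmu-miR-142a-3p: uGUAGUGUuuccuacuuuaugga
mmu-miR-142a-5p: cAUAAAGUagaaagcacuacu

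miR-146a-5p and miR-146b-5p were the only pair among the 7 sequences of the group shown that had the same seed. They differed by the substitutions G18A and U21C, counted from 1 at the 5′ end with the base of miR-146a-5p first. miR-21c, which is not in the group, has the seed of miR-21a-5p. It differed from miR-21a-5p by A16G, G18A, U19C, U20A and G21A, is 21 bases long where miR-21a-5p has 22, and lies on another chromosome. How reads that match 2 such miRNAs equally well were assigned is not given in the sources used here.

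The 6 hairpins placed here lie at separate loci. Mir155 is at chr16:84714140-84714204 on the plus strand, within an exon of the long non-coding Mir155hg in the GENCODE annotation of GRCm38. Mir146, the locus of miR-146a, is at chr11:43374397-43374461 on the minus strand, with no other gene annotated over it, and Mir146b is at chr19:46342762-46342870 on the plus strand, in an intron of Mfsd13a. Mir21a is at chr11:86584067-86584158 on the minus strand, within an exon of Vmp1. Mir223 is at chrX:96242817-96242926 on the plus strand, within an exon of the non-coding F630028O10Rik. Mir142 is at chr11:87756864-87756927 on the plus strand, in an intron of Mir142hg, and Mir142b is annotated on the opposite strand of the same place.

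The libraries held 13187096 to 23058568 counted reads, of which 14.8 to 32.0% were mature miRNA reads. The mean share and SD over 8 libraries were 25.1% ± 5.31 for PS19 and 25.8% ± 6.12 for WT (p = 0.789, two-sided exact permutation test). The library codes began with G in all 8 PS19 libraries and in WT replicates 2 and 4, with F in 4 WT libraries and with A in 2 WT libraries. What the letter stands for is not given in the sources used here. Many features also followed the replicate number in the sample titles, which both genotypes share: with genotype in the model, 1105 of the 6024 tested features (18.3%) had a linear trend on it at an adjusted p under 0.05 (limma). Among the members miR-146b-5p had such a trend (slope -0.20 on the log2 scale per number, adjusted p = 0.0235), while the slopes were -0.15 for miR-21a-5p (adjusted p = 0.0584), -0.14 for miR-146a-5p (adjusted p = 0.127), -0.089 for miR-150-5p (adjusted p = 0.154) and -0.052 for miR-155-5p (adjusted p = 0.593, limma). What the number stands for is not given in the sources used here. Of the 5 neuronal miRNAs examined, miR-128-3p, at a mean normalized count of 486403, and miR-9-5p, at 156881, were abundant, which fits the labelled tissue. The others were lower, at 11714 for miR-124-3p, 1048 for miR-138-5p and 49.8 for miR-137-3p. All values below are read counts that the authors divided by 1 size factor per library, called normalized counts.

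The 8 miRNAs covered a wide range of abundance. The mean over all 16 libraries was 9838 normalized counts for miR-146b-5p, 4772 for miR-21a-5p, 1813 for miR-150-5p and 1203 for miR-146a-5p, which ranked 47th, 70th, 95th and 112th among the 1254 mature miRNAs. miR-155-5p had a mean of 63.4 and ranked 299th. miR-223-3p, at 3.67, miR-142a-3p, at 2.39, and miR-142a-5p, at 2.26, stayed under the mean of 5 that was required for the fit across all features. Of the reads of the 8 miRNAs, 55.1% were miR-146b-5p and 27.0% were miR-21a-5p, while miR-155-5p made up 0.395%. The listed arms of miR-142 and miR-223 rested on 39 to 60 reads in all 16 libraries together. All 8 miRNAs together made up 0.404% ± 0.0974 of the mature miRNA reads in PS19 libraries and 0.386% ± 0.0805 in WT libraries (SD, n = 8 each), a difference smaller than the spread between libraries (p = 0.683, two-sided exact permutation test).

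**Figure D1:**
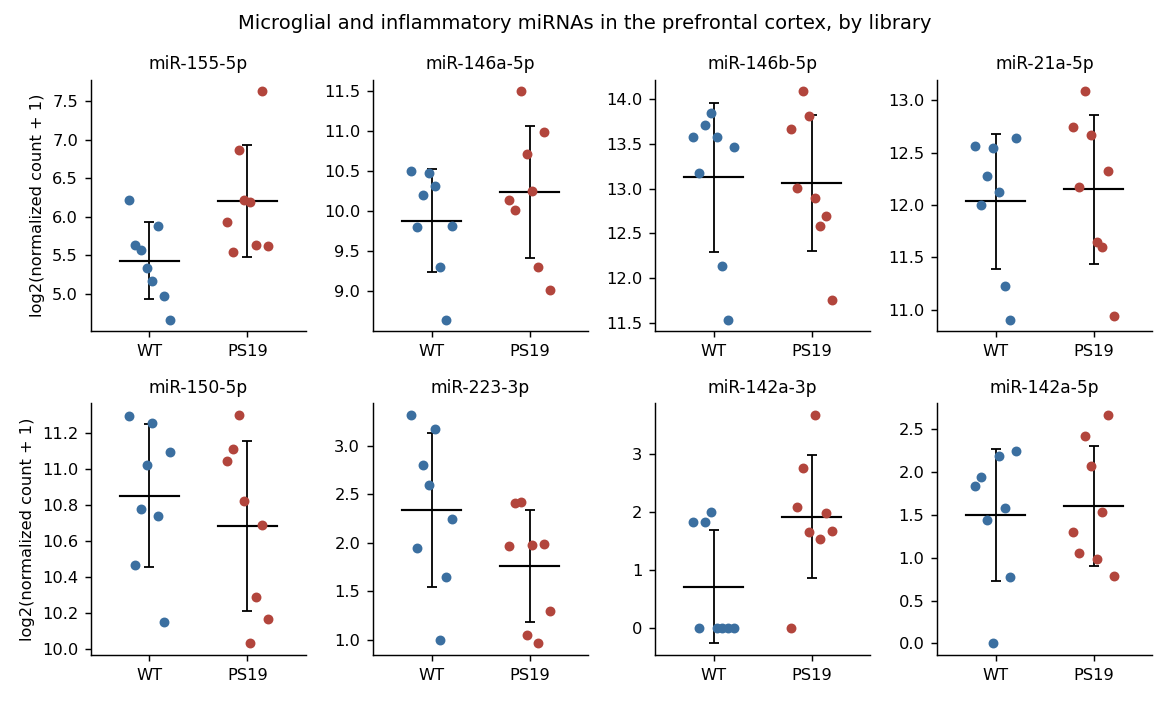
Each point is 1 library of WT (blue) or PS19 (red) mice, and the vertical axis is log2(normalized count + 1) on its own range in each panel. Horizontal lines are means and bars are SD over 8 libraries. The genotypes overlapped for all 8 miRNAs, with 3 PS19 libraries above every WT library for miR-155-5p.

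Of the 5 miRNAs with a mean of at least 5, only miR-155-5p had an unadjusted p under 0.05 between genotypes, and none passed after adjustment over all 6024 features tested (limma, Benjamini-Hochberg, adjusted p = 0.9998 for each of the 5). Over all tested features 241 had an unadjusted p under 0.05, which is 4.0%, and the share with such a p and a higher value in PS19 was 1.86%. Among the 534 tested mature miRNAs these shares were 2.81% and 0.749%. Adjusted p-values under 0.05 were found for 0 features with limma, 0 with edgeR and 15 with DESeq2 (0.249%), and unadjusted ones for 4.4% of features with edgeR and 4.7% with DESeq2. miR-155-5p was not among the 15, as DESeq2 gave it an adjusted p of 0.426. The 241 features divided into 112 higher and 129 lower in PS19, whereas 107 of 183 were higher after scaling to the library total and 76 of 124 after scaling to the mature miRNA total. The median log2 difference, PS19 minus WT, over the 5 tested members was 0.12, beside -0.02 over all tested features and -0.12 over the tested mature miRNAs. With 1 library left out, the median over the members ran from -0.046 without WT replicate 7 to 0.29 without PS19 replicate 8. In bulk tissue, fewer cells of a type and less RNA per cell cannot be told apart, and this holds for each level given here.

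miR-155-5p, the NF-kB-induced miRNA that promotes inflammation, was measured at 45.5 (lowest), 65.7 (median) and 197 (highest) normalized counts in PS19 and at 24.3, 42.7 and 73.0 in WT. All 8 PS19 libraries lay above the WT median, 3 of them above every WT library, and 4 WT libraries lay below every PS19 library, so the genotypes overlapped in the middle of the range. The log2 difference was 0.78 ± 0.30 (SE), with a 95% confidence interval of 0.16 to 1.40, which is a fold of 1.71 with an interval of 1.11 to 2.63 (unadjusted p = 0.0167 and adjusted p = 0.9998, limma). A two-sided exact permutation test over the 16 libraries gave p = 0.0204. The level rested on 26 to 331 reads per library, 753 in PS19 and 367 in WT.

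Leaving out any 1 library kept the log2 difference of miR-155-5p between 0.57 and 0.89 and its unadjusted p between 0.00788 and 0.0425, with the lowest difference when PS19 replicate 7 was left out. The G-coded libraries alone, 8 PS19 against WT replicates 2 and 4 with 48.5 and 39.2 normalized counts, gave a log2 difference of 0.72. In limma the unadjusted p = 0.159 there (adjusted p = 0.9997), and a term for the letter gave 0.72 with an unadjusted p = 0.157 (adjusted p = 0.9999). F-coded and A-coded libraries were WT only, so these gave no difference within a letter. The fit with the letter term therefore rests on the same comparison as the G-coded libraries alone. The part of the letter in the result was not tested beyond these fits.

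**Figure D2:**
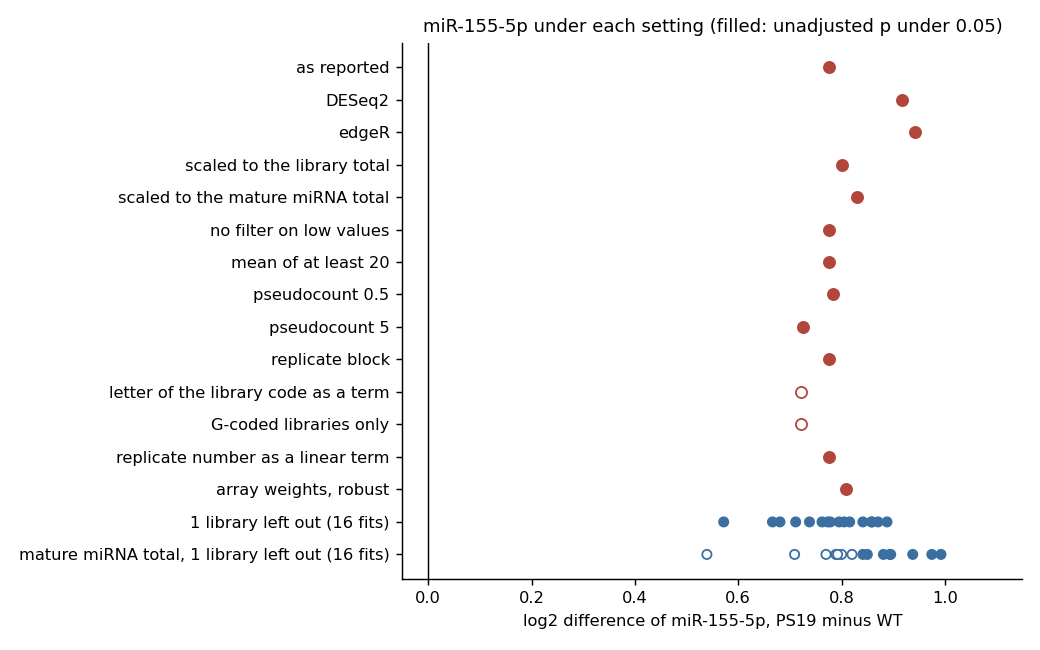
The horizontal axis is the log2 difference of miR-155-5p, PS19 minus WT, under each setting named on the vertical axis. Red points are fits on the libraries named and blue points are fits with 1 library left out. Filled points have an unadjusted p under 0.05 and open points do not. All differences were above 0, from 0.54 to 0.99.

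PS19 replicate 7 had the highest miR-155-5p level of all 16 libraries, and this was more marked when reads were set against the mature miRNA reads of the same library. It then held 73.1 reads of miR-155-5p per 1000000 mature miRNA reads, while the next library, WT replicate 6, held 21.9 and the lowest, also WT, held 5.39. On this scale PS19 replicate 7 was also the highest of the 16 libraries for miR-146a-5p, at 752 against 462 in the next library, for miR-21a-5p, at 1910 against 1417, and for miR-142a-5p, at 1.99 against 0.838. The same library was highest for the mir-142a precursor, at 26.1 against 12.7, and for miR-223-5p, at 3.97 against 3.56. It was not the highest for miR-146b-5p, miR-150-5p, miR-223-3p or miR-142a-3p. Over all 534 tested mature miRNAs it was the highest library for 78, which is 14.6%, and PS19 replicate 5 was the highest for 80, which is 15.0%. This library was singled out after its values were seen. With scaling to the mature miRNA total, miR-155-5p differed by 0.83 on the log2 scale (unadjusted p = 0.0363, limma), and by 0.54 without PS19 replicate 7 (unadjusted p = 0.0908, limma).

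**Figure D3:**
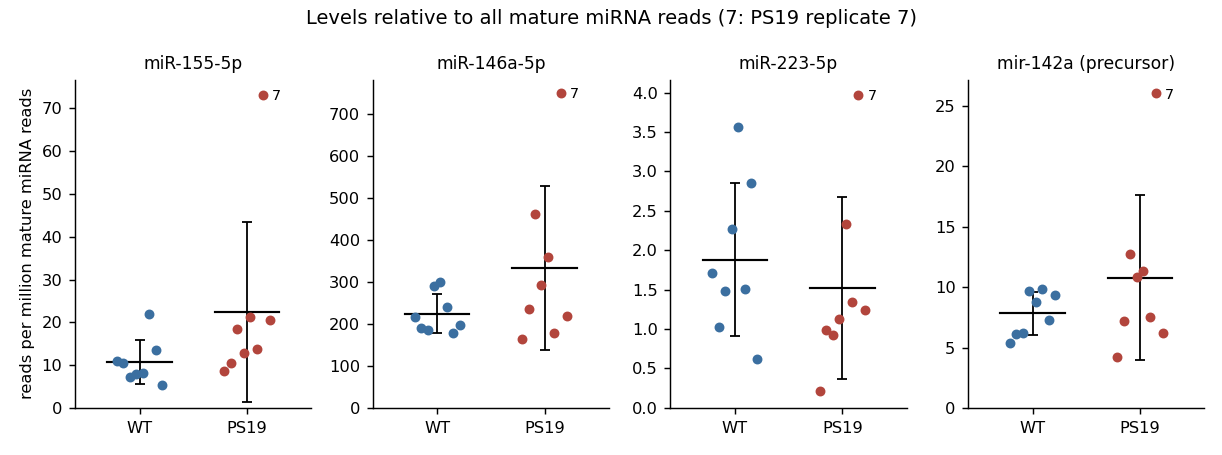
Each point is 1 library of WT (blue) or PS19 (red), and the vertical axis is reads per 1000000 mature miRNA reads on a linear scale from 0. Horizontal lines are means and bars are SD over 8 libraries. PS19 replicate 7, labelled 7, was the highest of the 16 libraries in all 4 panels.

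miR-146a-5p, which represses the adaptors of Toll-like receptor signalling, was measured at 519, 1171 and 2883 normalized counts (lowest, median, highest) in PS19 and at 399.6, 1036 and 1452 in WT. Above every WT library lay 3 PS19 libraries, below every PS19 library lay 1 WT library, and the remaining ones overlapped. The log2 difference was 0.36 ± 0.33 (SE), with a 95% confidence interval of -0.33 to 1.05 (unadjusted p = 0.294, limma). It ran from 0.18 to 0.53 with 1 library left out and from 0.10 to 0.49 under the other settings.

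miR-146b-5p has the same seed and was the more abundant of the pair in every library, with 3454, 7929.8 and 17432 normalized counts in PS19 and 2963, 11745 and 14709 in WT. The genotypes overlapped over nearly the whole range. Its log2 difference was -0.06 ± 0.35 (SE), with an interval of -0.79 to 0.67 (unadjusted p = 0.858, limma), and its sign turned when single libraries were left out. In the G-coded libraries alone it was -0.45 (unadjusted p = 0.373, limma).

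miR-21a-5p, induced in activated glia and made by many cell types, was measured at 1957, 4879.6 and 8706 normalized counts in PS19 and at 1913, 4715 and 6385 in WT. Again 3 PS19 libraries were above every WT library and 1 WT library was below every PS19 library. The log2 difference was 0.12 ± 0.31 (SE), with an interval of -0.52 to 0.76 (unadjusted p = 0.712, limma), and it was -0.12 in the G-coded libraries alone. miR-21c, with the seed of miR-21a-5p, had 20.9 ± 8.96 normalized counts in PS19 mice and 19.4 ± 9.22 in WT mice (SD, n = 8 each), and the log2 difference was 0.12 (unadjusted p = 0.705, limma).

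miR-150-5p, characteristic of mature lymphocytes, was measured at 1046, 1732 and 2523 normalized counts in PS19 and at 1138, 1919 and 2511 in WT. It varied least among the 5 tested members, by 2.41-fold between the highest and lowest PS19 library and by 2.21-fold in WT, where miR-155-5p varied by 4.33-fold and 3.01-fold. Its log2 difference was -0.17 ± 0.23 (SE), with an interval of -0.64 to 0.30 (unadjusted p = 0.466, limma). With 1 library left out it ran from -0.27 to -0.076, and under the other settings from -0.19 to -0.064. miR-150-5p had a mean of 1813 normalized counts over all libraries, against 2.39 for miR-142a-3p and 39.0 for the mir-142a precursor. Which cells its reads came from was not tested.

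**Figure D4:**
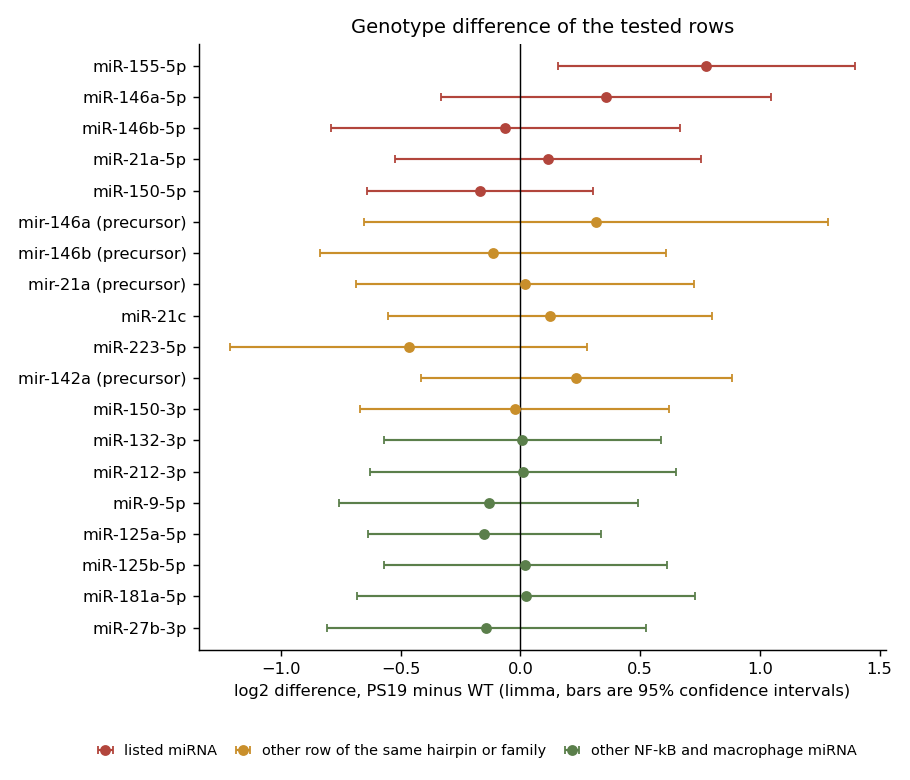
Points are log2 differences, PS19 minus WT, from the limma fit and bars are 95% confidence intervals, for the 5 tested members (red), other tested miRNAs of the same hairpins or families (yellow) and other tested NF-kB and macrophage miRNAs (green). The interval of miR-155-5p, from 0.16 to 1.40, was the only one of those drawn that did not include 0.

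Both miRNAs of a ratio come from 1 library, and ratios between members were taken on normalized count + 1. They therefore depend on the scaling of that library only through the added 1. They can still follow the content of a library. With genotype means removed, the r with its share of mature miRNA reads was 0.02 for miR-155-5p, 0.65 for miR-150-5p and 0.93 for miR-146b-5p. The part of this in the ratios was not tested. The log2 ratio of miR-155-5p to miR-150-5p was -4.48 ± 0.763 for PS19 and -5.43 ± 0.589 for WT (SD, n = 8 each), a difference of 0.94, or 1.92-fold, with 7 of 8 PS19 libraries above the WT median (p = 0.0126 in a two-sided exact permutation test, 0.126 after Benjamini-Hochberg adjustment over 10 ratios). This ratio held an unadjusted p of at most 0.0269 with each library left out in turn, but it did not pass the adjustment. The ratio of miR-146a-5p to its seed partner miR-146b-5p was -2.82 ± 0.554 for PS19 and -3.24 ± 0.293 for WT (SD, n = 8 each), a log2 difference of 0.42 with 7 of 8 PS19 libraries above the WT median (p = 0.0685, exact permutation test, adjusted p = 0.218). Without PS19 replicate 7 this difference was 0.26, and without PS19 replicate 1 it was 0.52. Of the other 8 ratios, miR-146a-5p to miR-150-5p had the lowest p, at 0.0693 in the exact permutation test, with an adjusted p of 0.218. The ratios were added after the values were seen.

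The leukocyte miRNAs with few reads were compared by the exact permutation test, and with limma only in a fit with no filter on low values. miR-223-3p, of neutrophils and monocytes, was at 0.949, 2.93 and 4.34 normalized counts (lowest, median, highest) in PS19 and at 1.0, 4.38 and 8.97 in WT, from 1 to 9 reads per library. All 8 PS19 libraries lay below the WT median and 4 WT libraries lay above every PS19 library, from 21 reads in PS19 and 39 in WT. The difference of mean log2(normalized count + 1), PS19 minus WT, was -0.58 (p = 0.116, two-sided exact permutation test), and the difference was -0.77 without WT replicate 6, the lowest WT library (p = 0.0295, exact permutation test). It was -0.32 with a pseudocount of 5 and -0.66 with 0.5. miR-223-5p, from the other arm of the same hairpin, was at 5.53 ± 2.89 normalized counts for PS19 and 8.13 ± 4.33 for WT (SD, n = 8 each). This is a log2 difference of -0.47 ± 0.36 (SE), with limma's unadjusted p = 0.207 (adjusted p = 0.9998).

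miR-142a-3p, a miRNA of all blood-forming lineages and of microglia, was at 0, 2.58 and 11.8 normalized counts in PS19 and at 0, 0 and 3.02 in WT. One PS19 library and 5 WT libraries held no read of it, and a library without a read allows up to 3 reads by counting error alone. PS19 held 31 reads, 12 of them in replicate 5, and WT held 8 reads. The difference of mean log2(normalized count + 1) was 1.21, PS19 minus WT (p = 0.0476, two-sided exact permutation test). At so few reads its size depends on the pseudocount, with 0.48 for a pseudocount of 5 and 1.63 for 0.5. Leaving out 1 library moved p to between 0.0112 and 0.0769, and it was above 0.05 without PS19 replicate 2, 3, 4, 5, 7 or 8 and without WT replicate 2, 5, 6, 7 or 8. With no filter on low values, limma gave this miRNA an unadjusted p = 0.0133 (adjusted p = 0.9999), with 3.98% of all features under 0.05. The same limma fit gave an unadjusted p of 0.150 for miR-223-3p and 0.804 for miR-142a-5p.

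miR-142a-5p comes from the other arm of the same hairpin. It was at 0.731, 1.68 and 5.35 normalized counts in PS19 and at 0, 2.28 and 3.73 in WT, a difference of 0.10 in mean log2(normalized count + 1) with p = 0.785 (two-sided exact permutation test). Under the other settings this difference ran from 0.038 to 0.16. Across the 16 libraries, as deviations from the genotype means, the 2 arms had r = -0.21 (permutation p = 0.429, adjusted over 6 pairs of miRNAs 0.515) and Spearman's rho = -0.21 (permutation p = 0.429), with r = -0.24 without PS19 replicates 1 and 5. At 0 to 12 reads per library neither a relation nor its absence could be read from these values.

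Each hairpin was next described by the reads of its 2 arms and of its precursor, which the authors' annotation counted as a feature of its own. In 4 of the 6 hairpins with both arms counted, nearly all mature reads were on the 5p arm: 1120 reads against 2 on the 3p arm for miR-155, 156182 against 51 for miR-146b, 76677 against 10 for miR-21a and 29646 against 109 for miR-150. miR-146a had 19745 reads on the 5p arm, and its 3p arm was not analysed here. For miR-150, the only hairpin of the group with both arms above the filter, the 5p share was 99.6% ± 0.222 for PS19 and 99.6% ± 0.168 for WT (SD, n = 8 each; p = 0.725, two-sided exact permutation test).

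The hairpins of miR-223 and miR-142a stood apart from this pattern. miR-223 had more reads on the 5p arm, 119, than on the 3p arm that is in the group, 60, and this order held in 13 of 16 libraries. The mir-142a hairpin had 654 precursor reads beside 39 reads on each mature arm, so 89.3% of its reads were counted as precursor, and the precursor exceeded both arms together in 16 of 16 libraries. For the other 6 hairpins the precursor took 0.188 to 7.73% of the reads. Over 287 hairpins with a mean of at least 20 the median was 2.72%, and mir-142a ranked 14th, with 35 hairpins over 50%. A precursor was matched only to mature miRNAs of its own name, so an arm shared between loci was left out. mir-128-1, at 88.2% precursor, was thus set beside a mature mean of 327, without miR-128-3p at 486403. The rank and the 35 therefore include hairpins whose precursor share is too high. Whether counting used the strand is not given in the sources used here, so reads from Mir142 and Mir142b on the opposite strand cannot be told apart from position alone. The table held a separate entry for the mir-142b precursor, with 2 reads in all 16 libraries.

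**Figure D5:**
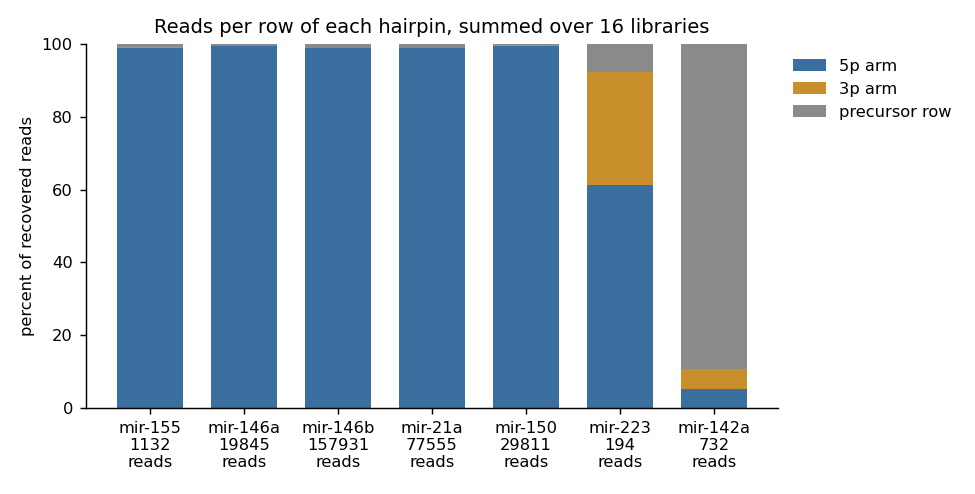
Bars show the percentage of the recovered reads of each hairpin that were counted to its 5p arm (blue), its 3p arm (yellow) and its precursor (grey), summed over 16 libraries, with the number of reads under each bar. mir-142a was the only one of the 7 in which the precursor took most reads, 89.3%.

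The mir-142a precursor was the most abundant measure of this hairpin, at 14.6, 34.9 and 79.6 normalized counts (lowest, median, highest) in PS19 and at 16.3, 36.7 and 47.3 in WT. Above every WT library lay 3 PS19 libraries and below every one lay 1, and the medians were close. Its log2 difference was 0.23 ± 0.31 (SE; unadjusted p = 0.464, limma), from 20 to 118 reads per library. Of 20 names from the same hairpins and families, 15 were in the table and 7 passed the filter. None of the 7 had an unadjusted p under 0.05, their median log2 difference was 0.02, and the lowest p was the 0.207 of miR-223-5p.

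The members of the NF-kB response were compared with each other across libraries, after the genotype means had been removed. miR-146a-5p and miR-146b-5p, made from 2 chromosomes, went together with r = 0.84 (permutation p = 0.0001, Benjamini-Hochberg adjusted over 6 pairs 0.0006) and rho = 0.71 (permutation p = 0.00274, adjusted 0.0164), with r = 0.75 without PS19 replicate 3 and WT replicate 7. Their r was 0.76 within PS19, 0.95 within WT and 0.78 within the 10 G-coded libraries. Both also went with the share of mature miRNA reads in a library, with r = 0.93 for miR-146b-5p and 0.66 for miR-146a-5p, and after scaling to the mature miRNA total the r between them was 0.62. The median r with the other mature miRNAs with a mean of at least 20 was already 0.78 for miR-146b-5p and 0.59 for miR-146a-5p. After that scaling these medians were 0.12 and 0.17. The p-values of the pair are against no relation and not against these medians. As levels followed the replicate number, libraries are not fully exchangeable and these permutation p-values are approximate. With the linear trend on the number removed as well, a setting added after the values were seen, r was 0.79 (permutation p = 0.00041, adjusted 0.00246) and rho was 0.79 (permutation p = 0.00056, adjusted 0.00336).

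miR-155-5p and miR-146a-5p had r = 0.62 (permutation p = 0.00977, adjusted 0.0293) and rho = 0.66 (permutation p = 0.00709, adjusted 0.0213), and r = 0.57 without PS19 replicate 7 and WT replicate 1. The r was 0.80 within PS19, 0.31 within WT, 0.75 within the G-coded libraries and 0.66 after scaling to the mature miRNA total, where it fell to 0.36 without PS19 replicate 7 and WT replicate 6. With the trend on the replicate number removed, r was 0.61 (permutation p = 0.00978, adjusted 0.0221), but rho was 0.51 (permutation p = 0.0445, adjusted 0.0890), and r fell to 0.40 without the 2 farthest libraries. After scaling to the mature miRNA total rho was 0.43 (permutation p = 0.0997, adjusted 0.150), so the relation between miR-155-5p and miR-146a-5p did not hold by rank under either setting. Of the 5 tested members, miR-155-5p had the lowest r with the share of mature miRNA reads, 0.02, where miR-21a-5p had 0.87 and miR-150-5p 0.65. The difference between the r of the genotypes was not tested.

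Among the leukocyte miRNAs, miR-223-3p and miR-451a, a miRNA of red blood cells, had r = 0.59 (permutation p = 0.0166, adjusted 0.0331) and rho = 0.61 (permutation p = 0.0141, adjusted 0.0283), with r = 0.54 without WT replicate 6 and PS19 replicate 6. The r was 0.87 within PS19, 0.43 within WT and 0.80 within the G-coded libraries. With the trend on the replicate number removed, r was 0.62 (permutation p = 0.0111, adjusted 0.0221), and after scaling to the mature miRNA total it was 0.54 (permutation p = 0.0318, adjusted 0.0637) with rho = 0.61 (permutation p = 0.0151, adjusted 0.0452). miR-223-3p and miR-142a-3p had r = 0.45 (permutation p = 0.0826, adjusted 0.124) and rho = 0.49 (permutation p = 0.0593), with r = 0.41 without the same 2 libraries. miR-150-5p and miR-142a-3p had r = 0.0024 (permutation p = 0.993) and rho = 0.084 (permutation p = 0.761), with r = 0.18 without WT replicate 7 and PS19 replicate 5. Of the 6 pairs, 3 had an adjusted p under 0.05 by both measures, and 1 of these, miR-223-3p with miR-451a, rested on at most 9 reads of miR-223-3p per library.

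Among 395 mature miRNAs with a mean of at least 20, miR-146a-5p was the one whose levels over the 16 libraries were most like those of miR-155-5p, followed by miR-10a-5p with r = 0.61 and miR-219a-2-3p with r = 0.60, while the median r of all others was 0.15. miR-146a-5p was most like miR-25-3p and miR-27b-3p, both with r = 0.89, and miR-146b-5p was most like miR-22-3p, with r = 0.98, and miR-9-5p, with r = 0.97. miR-21a-5p was most like miR-192-5p and miR-181d-5p, both with r = 0.98, and miR-150-5p was most like miR-27b-5p, with r = 0.92. For miR-146b-5p and miR-21a-5p the median r with all others was already 0.78 and 0.74, and it was 0.12 and 0.08 after scaling to the mature miRNA total. On that scale the miRNA most like miR-155-5p was miR-484, with r = 0.84. These values carry no test, and the miRNAs compared share the content and depth of each library, which differed between libraries.

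Of 12 other miRNAs of the NF-kB and macrophage response, 7 passed the filter and 0 had an unadjusted p under 0.05 with limma. These were miR-132-3p, miR-212-3p, miR-9-5p, miR-125a-5p, miR-125b-5p, miR-181a-5p and miR-27b-3p, which are also abundant in neurons and other brain cells. Their log2 differences lay between -0.15 and 0.02, with a median of 0.01 and p from 0.527 to 0.976. miR-147-3p, miR-147-5p, miR-511-3p, miR-511-5p and miR-301a-3p, the first 4 of them best known from macrophages, had means under 5.

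Markers of blood and vessels were examined beside these levels. The red blood cell list (miR-451a, both arms of miR-144, miR-486a-5p and miR-486b-5p) summed to 1933 ± 531 normalized counts in PS19, from 1451 to 2922, and to 2002 ± 449 in WT, from 1283 to 2824 (SD, n = 8 each; p = 0.722, two-sided exact permutation test, adjusted over 6 lists 0.940). This sum was almost all miR-486, whose 2 near-identical entries cannot be told apart, and both arms of miR-144 were near 0. miR-451a alone was at 18.0 ± 11.1 in PS19 and 13.2 ± 9.02 in WT (SD, n = 8 each; unadjusted p = 0.239, limma). This difference was of the opposite sign to that of miR-223-3p (p = 0.116, exact permutation test), while the r between these miRNAs across libraries was 0.59. Neither difference had an unadjusted p under 0.05 over all 16 libraries. The part of residual blood in the levels of miR-223-3p, miR-142a and miR-150 was not tested.

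The remaining lists were those of neurons, with an adjusted p of 0.940 for the sum (exact permutation test), oligodendrocytes with 0.572, endothelium with 0.940, vascular smooth muscle and pericytes with 0.572, and choroid plexus with 0.940. The vascular smooth muscle and pericyte sum was 20042 ± 7038 for PS19 and 27662 ± 9822 for WT (SD, n = 8 each; p = 0.161, exact permutation test). After scaling to the mature miRNA total this test gave 0.0199, or 0.119 when adjusted over the 6 lists. The oligodendrocyte sum, which is mostly the miR-219a-2-3p named above beside miR-155-5p, was 35305 ± 14982 in PS19 and 25865 ± 9579 in WT (SD, n = 8 each; p = 0.191, exact permutation test).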

How the data were processed

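Small RNA reads from the prefrontal cortex (8 PS19 mice, 8 WT mice) were aligned by the authors with STAR (2.5.3a, genome mm10, per the labels) and annotated with COMPSRA. The deposited table holds a signal per feature and library: read counts that the authors divided by 1 size factor per library with DESeq2 (1.42.1, per the labels). The authors' own comparison columns (means, fold changes, statistics, p-values) were not used. Values were whole multiples of 1 step per library, so reads were recovered by division (100% whole within 1e-06), although the step of WT replicates 4 and 6 is near 1 and rests on weaker evidence.

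Because the values are not counts, log2(value + 1) was fitted with limma (3.58.1, R 4.3.3, trended moderation, genotype as the only term) over 6024 features with a mean of at least 5, with Benjamini-Hochberg adjustment over all of them. edgeR (4.0.16) and DESeq2 (1.42.0) on the recovered reads were alternatives. Single miRNAs, sums, shares and ratios were compared by two-sided exact permutation of the genotype over 12870 assignments, and correlations by 100000 permutations of libraries after removal of the genotype means. The limma script was tested on simulated data. Read limits cover counting error only, while the confidence intervals and p-values rest on the spread between these 16 mice, which limma moderates over all tested features.

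Named were the 8 members, features of the lists given in the text, and for each tested member the 3 mature miRNAs most like it. Only the miR-150 hairpin had both arms above the filter that the arm test required. The members and lists were chosen with earlier results of these data known. Sequences came from RefSeq (GRCm38.p6) and matched 7 of the 8 members.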

Additional observations from a re-analysis of the deposited data

Results flagged for a closer look

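Of 42 group values examined, 3 stood far from the other libraries of their genotype by Dixon's ratio, where about 1 in 20 does so by chance, or 2.1. miR-155-5p in PS19 replicate 7 was at 197 normalized counts, with 116 in the next PS19 library, and the gap took 0.536 of the range of PS19. The depth of the same library was 22.6 M reads, with 18.0 M in the next PS19 library, where M is 1000000. The log2 ratio of miR-146a-5p to miR-21a-5p in WT replicate 8 was -2.83, with -2.26 in the next WT library.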

How the results depend on the processing

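The log2 difference of miR-155-5p stayed above 0 in 13 alternatives, from 0.72 to 0.94, and lost its unadjusted p under 0.05 in 2 of them, with a term for the letter of the library code (0.72) and with G-coded libraries only (0.72). These 2 settings also turned miR-21a-5p to -0.12, moved miR-146b-5p to -0.45 and left 0 members with an unadjusted p under 0.05, where the reported count was 1, while no filter on low values gave 2. All PS19 libraries were G-coded, so both settings rest on the same comparison, with 2 of the 8 WT libraries, and are not 2 separate checks. The cause was not tested. With each library left out in turn, miR-155-5p lay between 0.57 and 0.89, miR-146b-5p between -0.29 and 0.12, miR-21a-5p between -0.046 and 0.29, miR-223-3p between -0.77 and -0.44 (exact permutation p 0.0295 to 0.216), miR-142a-3p between 0.96 and 1.49 (exact permutation p 0.0112 to 0.0769) and miR-142a-5p between -0.11 and 0.22, and the difference of the miR-150 5p share lay between -0.080 and 0.032 percentage points. Chosen after seeing the data were the same omissions after scaling to the mature miRNA total, with miR-155-5p from 0.54 to 0.99 (unadjusted p above 0.05 without PS19 replicate 3, 5, 7 or 8 or WT replicate 3, 4, 5 or 8) and miR-146b-5p from -0.10 to 0.065, and for the ratios with miR-155-5p to miR-146b-5p from 0.58 to 1.05, miR-155-5p to miR-21a-5p from 0.46 to 0.84, miR-146a-5p to miR-146b-5p from 0.26 to 0.52, miR-146a-5p to miR-150-5p from 0.42 to 0.63 and miR-146b-5p to miR-150-5p from -0.023 to 0.22. The median log2 difference of all features was between -0.02 and 0.03 under the 5 scalings.

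Replicate numbers occur in both genotypes, but the correlation of same-numbered libraries was between 0.0446 and 0.456, over 0.1 in 6 of 8 pairs, and 2 of 8 pairs correlated best with their own number, so the numbers, which no source says mark shared litters or batches, were not taken to pair mice. With the replicate block, miR-155-5p kept 0.78 (unadjusted p = 0.0185, adjusted p = 0.641, limma), and no call of the other tested members changed. With the number as a linear term it was again 0.78 (unadjusted p = 0.0134, limma). For the correlations, chosen after seeing the data, miR-150-5p with miR-142a-3p turned to -0.087 with the trend on the number removed and to -0.098 after scaling to the mature miRNA total, and miR-223-3p with miR-451a was 0.54 after that scaling. At 0 to 12 reads per library, depth limits what miR-142a and miR-223-3p can show.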
